A study of Lathyrus oleraceus with 9 samples.

Results

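Ribosomal proteins were represented by 63 probes among the 717 probes that the study listed as changed in aged pea seeds, out of 5246 probes on the array. They were chosen by name, as all listed probes whose product name contains the words ribosomal protein. Of the 63 probes, 34 were named for proteins of the cytosolic large (60S) subunit and 21 for proteins of the cytosolic small (40S) subunit. A further 5 carried 30S, 50S or chloroplast in their names and are called organellar here. The remaining 3 (S10, S27 and a member of the S21 family) were small subunit proteins whose names did not tell the compartment. Copy numbers aside, the names stood for 51 different proteins, 26 of the cytosolic large and 17 of the cytosolic small subunit. The study listed probes by the size of the same ratios that are described here, so that the ratios of aged over non-aged seeds are given without a test. Ribosomal protein probes that the study did not list as changed were not analysed here, and the 63 probes are therefore not a census of the pea ribosome.

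A ribosome joins a small subunit, which reads the mRNA, to a large subunit, which forms the peptide bond, and each subunit is built from rRNA and one copy of most of its proteins. Plant cells hold cytosolic ribosomes, whose proteins are all encoded in the nucleus by small gene families, and separate ribosomes of bacterial type in plastids and mitochondria, whose proteins are encoded partly in the organelle. Dry seeds store ribosomes and mRNA, and protein synthesis resumes from these stores when the seed takes up water.

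Seeds of pea (Pisum sativum cv Alaska Early) were equilibrated over 60% relative humidity to a moisture content of 12%. Those used at that stage are the non-aged controls, and the others were then kept sealed at 50°C for 8, 12 or 15 d, which is artificial ageing of dry, ungerminated seeds. For each ageing time 3 arrays were made, 9 in all, each from 1 µg of total RNA of aged and of non-aged seeds, with 20 seeds pooled per replicate. Aged RNA carried Cy3 on replicates 1 and 3 and Cy5 on replicate 2, and the deposited ratios of the exchanged array had already been turned to run the same way. Whether the non-aged RNA was the same on all arrays was not stated, and the 3 ageing times are therefore set side by side as comparisons that may share their controls.

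Each value is the log2 of the signal of aged seeds over that of non-aged seeds, in which -1 stands for a 2-fold lower and 1 for a 2-fold higher signal. Array medians over all probes were 0.01 or 0.02, and the values had steps of 0.01. For the fit over all probes, limma's moderated test was used with p-values adjusted by Benjamini and Hochberg, and a probe was called down- or up-regulated at an adjusted p under 0.05 and a mean ratio at or beyond 1 or -1. The median SD within an ageing time was 0.063 for the ribosomal protein probes and 0.074 for all probes. Equal masses of total RNA from whole seeds were amplified and labelled before they were compared. Fewer cells of a type and less of an mRNA per cell therefore cannot be told apart. How amplification acts on RNA of different integrity was not tested. The paper reports RNA degradation that progressed with ageing and was visible at its earliest ageing time. Its authors made arrays only with RNA that they judged satisfactory. They propose that breakdown of stored mRNA may add to the lower transcript levels. RNA integrity thus changed along with ageing time, and its part in the ratios and in their steps was not tested. A ratio carries no level, and the labelled tissue could not be checked against marker genes. The spread between arrays covers pooled seeds and may be partly technical.

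Most ribosomal protein probes were lower in aged seeds, a smaller set was higher, and no probe changed sign between arrays. The log2 ratio had the same sign on all 9 arrays for each of the 63 probes, with 48 lower and 15 higher. Listing by the size of the ratio favours such agreement. Of the 341 other listed probes lower at 15 d, 339 had means below 0 at 8 d too. All 313 other listed probes higher at 15 d had means above 0 at 8 d. At 8 d, 21 were down-regulated, at 12 d 23, and at 15 d 46. Over all 5246 probes the percentage down-regulated was 4.48, 4.77 and 7.09 at these times. Up-regulated ribosomal protein probes numbered 2, 4 and 13, where the percentage over all probes was 2.52, 3.13 and 5.64. With 1 value per accession number the 12 d count was 2, and with arrays scaled to equal median absolute deviation the 15 d count was 7. Because the listing used these ratios, nothing is read from the distance between these counts and those percentages. Of the 654 other listed probes, 50.6% were down-regulated and 46.6% up-regulated at one or more times, and the same percentages for ribosomal protein probes were 74.6% and 20.6%. The down-regulated probes included 19 that were past the threshold at all 3 times and 22 that were past it at 15 d alone, and the up-regulated probes included 2 and 9 of these kinds. Of the 654 other listed probes, 181 and 86 were down-regulated in these ways, and 95 and 122 up-regulated. Over all 5246 probes the counts were 205 and 113 down-regulated, and 99 and 141 up-regulated. The plot of all probes by array shows both sets and the gap around 0 that the threshold of the list leaves.

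**Figure D1:**
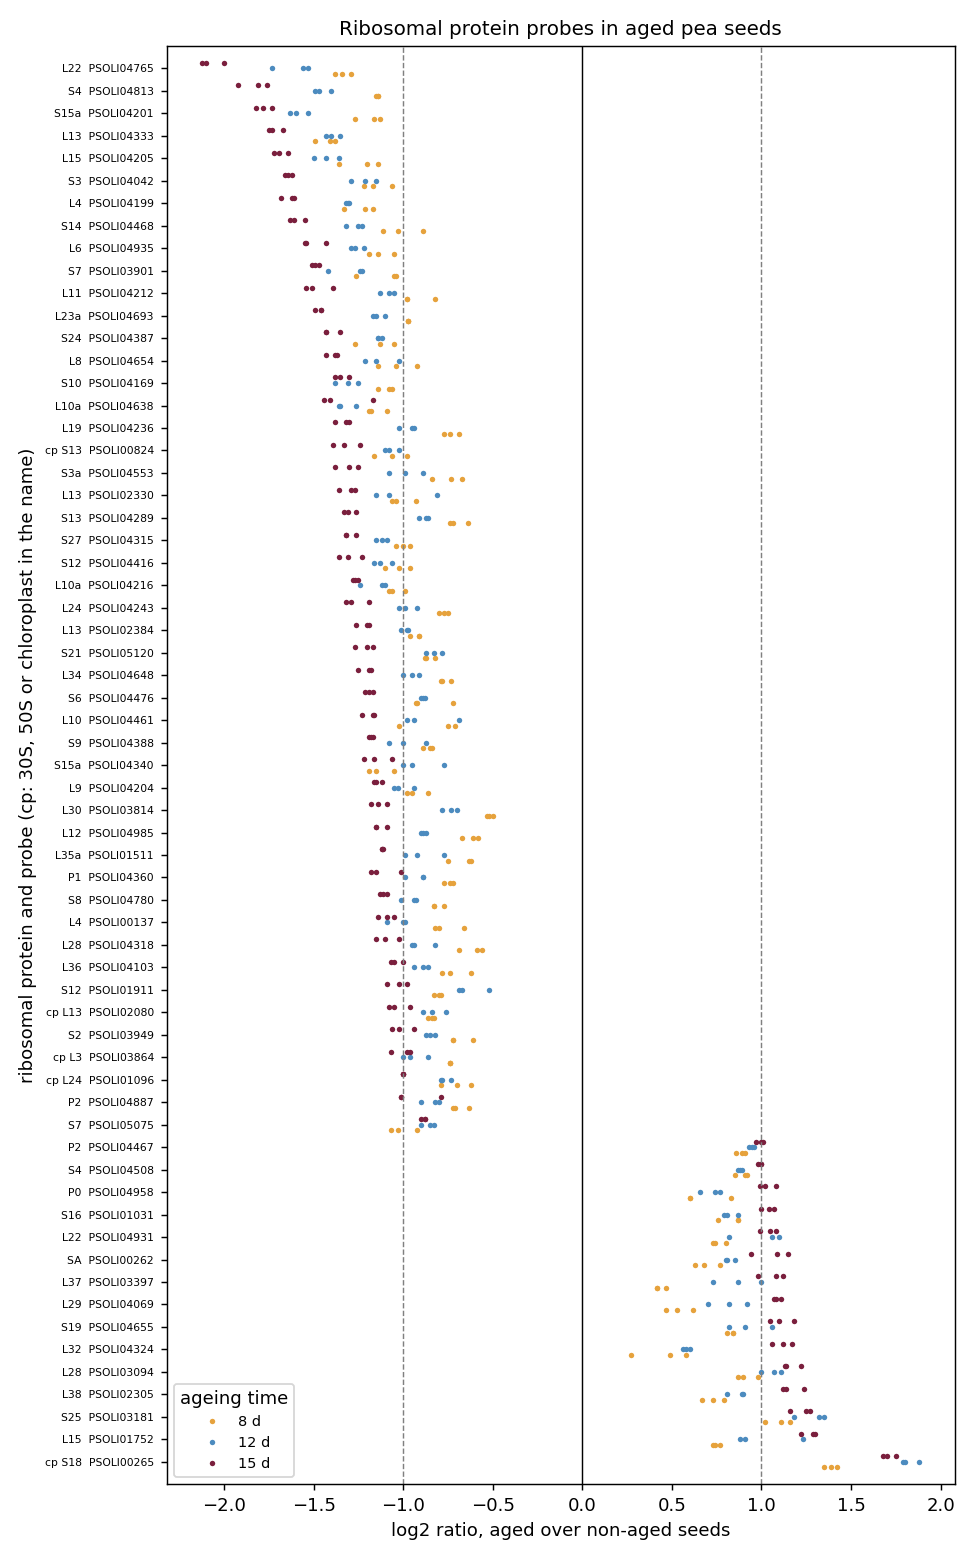
Log2 ratio, aged over non-aged (x axis), for each of the 63 ribosomal protein probes (y axis, in the order of the 15 d mean), with 1 point per array in orange for 8 d, blue for 12 d and dark red for 15 d, and dashed lines at -1 and 1. The 48 lower and 15 higher probes stay on their own side of 0 on all 9 arrays, and most lie farthest from 0 at 15 d.

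Large and small cytosolic subunits differed by at most 0.11 in their median log2 ratios. The median log2 ratio of the 34 large subunit probes went from -0.75 (8 d) through -0.94 (12 d) to -1.14 (15 d). Among the 21 small subunit probes it stood at -0.86, -0.91 and -1.18. The difference of these medians, large minus small, came to 0.11 ± 0.02 (SD, n = 3 arrays), -0.03 ± 0.02 and 0.03 ± 0.01 after 8, 12 and 15 d. At 8 d the large subunit median was thus the less negative one on each of the 3 arrays, at 12 d the more negative one and at 15 d again the less negative one. At 12 d the sign turned when means over probes replaced medians (0.0298). These medians mix lower and higher probes. Among lower probes alone, large minus small was 0.10 ± 0.11, 0.01 ± 0.03 and 0.03 ± 0.06 after 8, 12 and 15 d. The 3 arrays did not share a sign at 12 d or at 15 d. Among higher probes alone it was -0.14 ± 0.03, 0.02 ± 0.01 and 0.01 ± 0.11, below 0 on all 3 arrays of 8 d. Counted by calls at 15 d, 24 large subunit probes were down- and 8 up-regulated, against 15 and 4 of the small subunit. At 8 d, 9 probes of either subunit were down-regulated, which was 26.5% of the large and 42.9% of the small subunit probes.

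**Figure D2:**
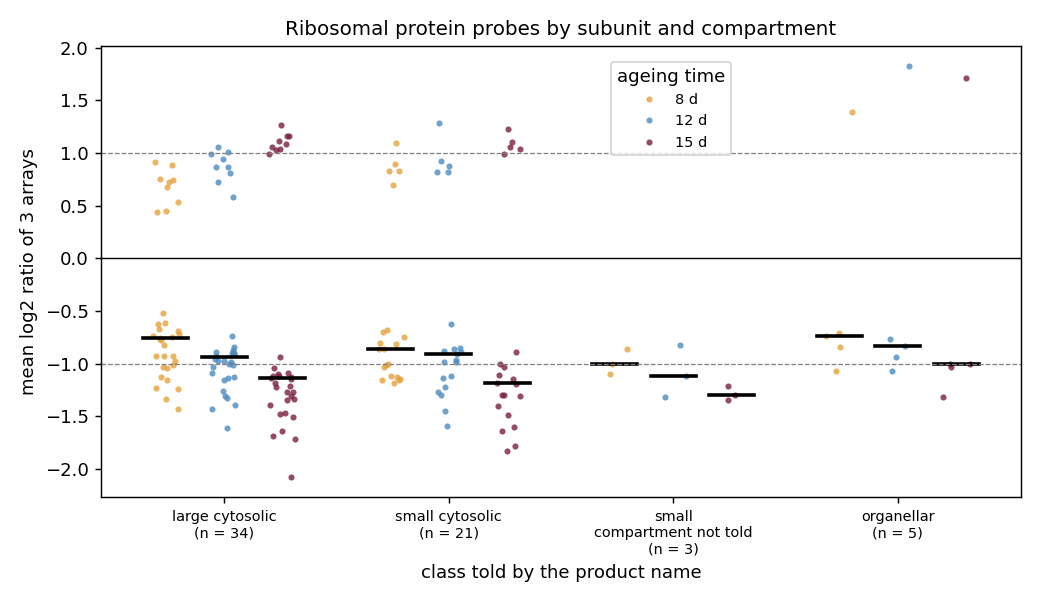
Mean log2 ratio of 3 arrays (y axis) for each ribosomal protein probe, grouped by the class that its name tells (x axis) and coloured by ageing time, with black bars at the class medians and dashed lines at -1 and 1. The medians of the large and small cytosolic subunits lie within 0.11 of each other at each time, and each class except the 3 probes of untold compartment holds probes on both sides of 0.

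In the large subunit, the lowest probe at every time but one was one of those for L22, a protein with no bacterial counterpart. Probe PSOLI04765, named L22-2, gave log2 ratios of -1.38, -1.29 and -1.34 at 8 d, -1.56, -1.73 and -1.53 at 12 d, and -2.10, -2.12 and -2.00 at 15 d. The arrays of the 3 times did not overlap, and the 15 d mean of -2.07 ± 0.06 (SD, n = 3) stands for a 4.21-fold lower signal in aged seeds. At 8 d the lowest was L13-1 (PSOLI04333), with -1.41, -1.38 and -1.49, then -1.35, -1.40 and -1.43 at 12 d and -1.67, -1.73 and -1.75 at 15 d. Its 8 d and 12 d arrays overlapped, and its 15 d arrays lay below both. The other probes for L13-1 (PSOLI02330 and PSOLI02384) were also lower at 15 d, at -1.31 and -1.22. L15-2 (PSOLI04205) read -1.14, -1.36 and -1.20 at 8 d, -1.36, -1.43 and -1.50 at 12 d, and -1.72, -1.64 and -1.69 at 15 d.

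Other lower large subunit probes are given here by what their proteins are known for. At 15 d the mean log2 ratio was -1.64 and -1.09 for the 2 probes of L4, which lines the exit tunnel, -1.47 for L23a at the tunnel's mouth, and -1.39 for L8-3, near the peptidyl transferase centre. L11, which joins the 5S rRNA together with L5, stood at -1.48. L19-1 (-1.33) and L24 (PSOLI04243, -1.27) reach across to the small subunit. L10 (-1.19) is one of the last proteins to join the large subunit in yeast, and L12-3 (-1.13) sits at the base of the stalk. L30 (-1.14), which in yeast holds back the splicing of its own transcript, had the smallest ratio of any lower probe at 8 d, -0.52. The remaining lower probes of the large subunit with means below -1 at 15 d were L6-2 (-1.51), L10a-1 (-1.34), a second L10a (-1.27), L34 (-1.21), L9 (-1.14), L35a-3 (-1.12) and L36-2 (-1.04), beside L28-1 and P1-1, which are given with their partners.

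Among small subunit proteins, S4-2, S15a-1 and S3-2 had the lowest ratios at 15 d. S4-2 (PSOLI04813) gave -1.15, -1.14 and -1.14 at 8 d, -1.40, -1.49 and -1.47 at 12 d, and -1.92, -1.76 and -1.81 at 15 d, a 3.56-fold lower signal at the last time with no overlap between times. S15a-1 (PSOLI04201), whose bacterial counterpart binds the small subunit rRNA early in assembly, read -1.16, -1.13 and -1.27 at 8 d, -1.63, -1.53 and -1.60 at 12 d, and -1.82, -1.78 and -1.73 at 15 d. A second probe named S15a-1 (PSOLI04340) was lower too but stayed near the same value, with means of -1.13, -0.91 and -1.15. S3-2, which lies where the mRNA enters, stood at -1.64 at 15 d, and S14, on the platform near the mRNA exit, at -1.60. S6, the ribosomal protein best known as a target of phosphorylation through the TOR pathway, had a mean of -1.19. S3a (-1.31), also called CYC07, was described in periwinkle cells from its expression in the S phase. The other lower small subunit probes lay between -1.49 (S7-1) and -0.89 (a probable S7 homolog), with S24-1, S13, both S12 probes, S9-2, S8 and S2-4 inside that range. S10, S27 and the S21 family member, of untold compartment, stood at -1.34, -1.30 and -1.21.

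The 15 higher probes comprised 9 of the large subunit, 5 of the small subunit and 1 organellar probe, and all but the organellar one stood between 0.99 and 1.27 at 15 d. Outside the organelles the highest at 15 d was L15-2 (PSOLI01752), with 0.73, 0.77 and 0.74 at 8 d, 0.91, 1.23 and 0.88 at 12 d, and 1.30, 1.22 and 1.29 at 15 d. S25-2 (PSOLI03181), which in yeast and human cells serves translation from internal ribosome entry sites, gave 1.02, 1.16 and 1.11, then 1.18, 1.35 and 1.32, then 1.25, 1.16 and 1.27. It was the only cytosolic probe up-regulated at all 3 times. L38 (PSOLI02305), needed in mice for translation of a subset of Hox mRNAs, had 0.67, 0.79 and 0.73 at 8 d, 0.90, 0.89 and 0.81 at 12 d, and 1.12, 1.14 and 1.24 at 15 d, with no overlap between times. SA (p40), related to the laminin receptor of animals, and S19-3, mutated in an inherited human anaemia, reached 1.06 and 1.11 at 15 d. L32-1 had means of 0.45, 0.58 and 1.12 after 8, 12 and 15 d. The others at 15 d were S16 (1.04), L37-2 (1.06) and L29-1 (1.09), and probes for P0, L22-2, L28-1, P2-2 and S4, which are described next.

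Several ribosomal proteins had one probe on each side of 0. Of 11 proteins with several probes, 5 (L22, L15, L28, S4 and P2) held probes of opposite sign, and in each of these pairs both probes were annotated with the same database entry. The other 6 (L13, L10a, L4, S15a, S12 and S7) had probes of the same sign. In the L22 pair, the higher probe (PSOLI04931) gave 0.80, 0.73 and 0.74 at 8 d, 1.10, 0.82 and 1.06 at 12 d, and 0.99, 1.05 and 1.08 at 15 d, so that it lay 3.09, 3.17 and 3.08 above its partner on the 3 arrays of 15 d. That distance had been 2.09 on average at 8 d and 2.60 at 12 d.

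The L15 probes were 2.95 apart at 15 d and 1.98 apart at 8 d. For S4, the higher probe (PSOLI04508) gave 0.92, 0.85 and 0.91 at 8 d, 0.88, 0.89 and 0.87 at 12 d, and 0.98, 1.00 and 1.00 at 15 d, and its distance from S4-2 was 2.04, 2.33 and 2.82 at the 3 times. This probe changed little with time, and the widening lay in the lower one. The L28-1 probes both moved outward. The lower one (PSOLI04318) read -0.69, -0.56 and -0.59, then -0.95, -0.82 and -0.94, then -1.10, -1.15 and -1.02, and the higher one (PSOLI03094) read 0.90, 0.98 and 0.87, then 1.00, 1.11 and 1.07, then 1.13, 1.22 and 1.14. Among all listed probes that share a database entry, 5 of 9 entries with several ribosomal protein probes held both signs (55.6%), and so did 14 of 31 other entries (45.2%). Entries were matched by their label as listed, and some labels name a protein but no species. Pairs of opposite sign were thus not found for ribosomal proteins alone. The probe letters and the transcripts they match were not analysed here, so whether a pair reads 2 genes of a family was not tested.

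**Figure D3:**
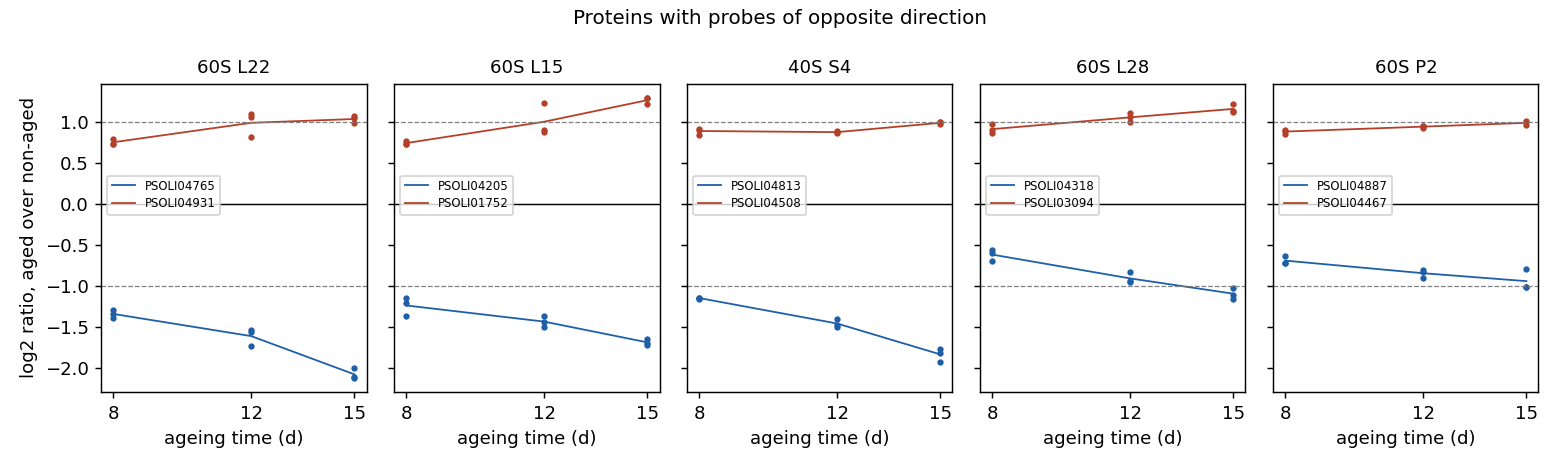
Log2 ratio, aged over non-aged (y axis), against ageing time in days (x axis) for the 5 proteins with probes of opposite sign, 1 panel each, with points for the 3 arrays of a time, lines through their means and dashed lines at -1 and 1. The lower probe (blue) and the higher probe (red) of each protein move apart from 8 d to 15 d, to between 1.93 (P2) and 3.11 (L22).

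The acidic stalk, in which P0 anchors dimers of P1 and P2 and which brings elongation factors to the ribosome, was mixed in direction. P0 (PSOLI04958) was higher, at 0.60, 0.60 and 0.83 at 8 d, 0.77, 0.66 and 0.74 at 12 d, and 1.02, 0.99 and 1.08 at 15 d, with overlap between 8 d and 12 d and none with 15 d. P1-1 (PSOLI04360) was lower, at -0.72, -0.74 and -0.77, then -0.89, -0.99 and -0.89, then -1.15, -1.01 and -1.18. P2-1 (PSOLI04887) was lower by less, at -0.63, -0.71 and -0.72, then -0.90, -0.80 and -0.82, then -1.01, -0.79 and -1.01. Its value on replicate 2 of 15 d was nearer to 0 than those of 12 d, and its 15 d mean was -0.94 ± 0.13. P2-2 (PSOLI04467) was higher, at 0.86, 0.91 and 0.89, then 0.93, 0.96 and 0.95, then 1.01, 1.00 and 0.97. The stalk's proteins thus lay between -1.11 and 1.03 at 15 d.

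Organellar proteins included the highest ribosomal protein probe of all. Chloroplast S18 (PSOLI00265), which land plants usually encode in the plastid genome, gave 1.42, 1.35 and 1.39 at 8 d, 1.80, 1.79 and 1.88 at 12 d, and 1.70, 1.68 and 1.75 at 15 d. Its 12 d mean of 1.82 ± 0.05 was the highest of the 3, and its signal at 15 d was 3.27-fold above that of non-aged seeds. The other 4 organellar probes were lower. S13, which contacts the large subunit in bacterial ribosomes, gave -1.06, -0.98 and -1.16, then -1.10, -1.08 and -1.02, then -1.24, -1.33 and -1.39. L13, named 50S with no organelle given (PSOLI02080), read -0.84, -0.86 and -0.83, then -0.84, -0.76 and -0.89, then -0.96, -1.05 and -1.08. In both, 8 d and 12 d overlapped.

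L3-2 and L24, chloroplast proteins whose bacterial counterparts start the assembly of the large subunit, lay at the threshold at 15 d. L3-2 (PSOLI03864) gave -0.74 on all 3 arrays of 8 d, then -0.96, -0.86 and -1.0, then -0.98, -1.07 and -0.96. L24 (PSOLI01096) gave -0.79, -0.70 and -0.62, then -0.78, -0.73 and -0.79, then -1.0 on all 3 arrays of 15 d. Equal values on the 3 arrays of a time occurred for 3 ribosomal protein probes in all, the other being L23a at 8 d (-0.97), and for 0.305%, 0.152% and 0.229% of all probes at 8, 12 and 15 d. The median of the 4 lower organellar probes was less negative than that of the 41 lower cytosolic ones on each array, by 0.14 ± 0.01, 0.12 ± 0.08 and 0.22 ± 0.01 after 8, 12 and 15 d, a description of few probes that were chosen on these ratios.

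Near the threshold stood the 3 probes that reached it at no time, P2-1 (-0.94 at 15 d), P2-2 (0.99) and S4 (0.99), and, just inside, chloroplast L24 (-1.0) and L3-2 (-1.0) and, among the higher ones, P0 (1.03). The 9 lowest probes, by contrast, were at or below -1.5 at 15 d. Of all lower probes the probable S7 homolog (PSOLI05075) was the only one nearer to 0 at 15 d than at 8 d. It gave -1.07, -1.03 and -0.92 at 8 d, -0.85, -0.83 and -0.90 at 12 d, and -0.88, -0.90 and -0.88 at 15 d, and its 8 d arrays lay below those of both later times.

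With ageing time most ribosomal protein ratios moved away from 0, in a list chosen largely by its 15 d ratios. Of the 48 lower probes, 40 were lower at each step from 8 d to 12 d to 15 d, and all 48 were lower at 15 d than at 12 d, with a median step of -0.25. The median step from 8 d to 12 d was -0.16. Of the 15 higher probes, 11 were higher at each step, and the median steps were 0.14 and 0.19. The 8 d and 15 d arrays did not overlap for 46 of the 48 lower and 14 of the 15 higher probes. For these counts of steps and of overlap, shares over all probes were not computed, so nothing is read from their size. Ratios widened over the whole array as well. The slope of the ratios of all probes was 1.01 for 12 d on 8 d, 1.14 for 15 d on 12 d and 1.17 for 15 d on 8 d. The median absolute deviation of an array was 0.386 in the 8 d set, 0.40 in the 12 d set and 0.445 to 0.460 in the 15 d set. Steps that end at 15 d carry no test, since the 15 d arrays brought most probes into the list.

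For the 31 probes past the threshold at 15 d alone, limma's test of 12 d against 8 d is given. Their 8 d and 12 d arrays still took part in the choice, since a probe called at either time was left out. The test on these probes is therefore not independent of the choice, and its counts are a description. Of the 22 lower ones, 19 were lower at 12 d than at 8 d in the mean and 13 passed limma's test for that difference at an adjusted p under 0.05 over all probes (59.1%), with a median difference of -0.18. One, S12 (PSOLI01911), passed in the other direction. Over all probes 8.84% were called lower and 9.68% higher at 12 d, and of the 86 other listed probes that were down-regulated at 15 d alone, 14 were called lower (16.3%). The difference between ribosomal protein and other listed probes was not tested. All 12 d arrays lay below all 8 d arrays for 15 of the 22 probes (68.2%), against 32.6% of the other listed probes and 17.0% of all probes.

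Each test used 3 arrays per time, and the count of 13 fell to 4, 5 and 1 without replicate 1, 2 and 3, while it was 3, 4 and 5 of the 86 other probes. Without replicate 3, 4.55% of the 22 probes were thus called lower, against 5.81% of the 86 others and 3.95% of all probes. The larger share of calls therefore rested on having all 3 replicates in the fit. L28-1 (PSOLI04318) had the largest fall, by 0.29 (SE 0.06, adjusted p = 0.0036 in limma), and L12-3 the next, by 0.27 (SE 0.05, adjusted p = 0.0022). Others called lower were S3a, L19-1, L35a-3, L30, L24, chloroplast L3-2, L34, L36-2, S13, P1-1 and S2-4, so that the called probes came from both subunits and from the chloroplast. S12 rose by 0.18 (SE 0.06, adjusted p = 0.041), from -0.79, -0.80 and -0.83 at 8 d to -0.52, -0.67 and -0.69 at 12 d, before it stood at -0.98, -1.09 and -1.02 at 15 d. S6, S9-2, S8 and L10 were among the 9 lower probes past the threshold at 15 d alone that were not called lower, as was S12.

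Of the 9 higher probes past the threshold at 15 d alone, 8 were higher at 12 d than at 8 d in the mean and 3 were called (33.3%), against 12.3% of 122 other listed probes of this kind. L37-2 (PSOLI03397) had the largest rise, from 0.42, 0.42 and 0.47 at 8 d to 0.87, 1.00 and 0.73 at 12 d, a difference of 0.43 (SE 0.07, adjusted p = 0.00041 in limma), and then 1.08, 0.98 and 1.12 at 15 d. L29-1 rose by 0.27 (SE 0.06, adjusted p = 0.0070) and L22-2 (PSOLI04931) by 0.24 (SE 0.07, adjusted p = 0.025). Without replicate 1 or without replicate 3, 1 of these calls was left, and without replicate 2 there were 3. The plot of the change between 8 d and 12 d shows these probes beside the other listed ones.

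**Figure D4:**
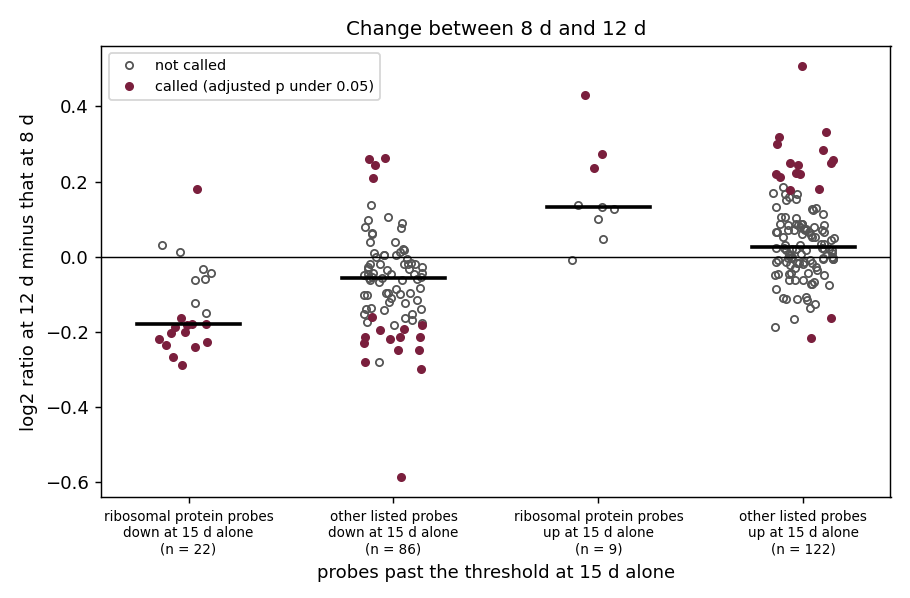
Log2 ratio at 12 d minus that at 8 d (y axis) for probes past the threshold at 15 d alone, with ribosomal protein probes and other listed probes in separate columns (x axis), filled points for probes called by limma and black bars at the medians. Medians were -0.18 and -0.06 for the probes lower at 15 d and 0.13 and 0.03 for those higher at 15 d.

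A feature that the choice by name did not use was the probe number. Of the 63 probes, 41 (65.1%) had numbers from 4000 to 4999, a block that held 19.1% of all probes and 21.7% of the other listed ones. Of the ribosomal protein probes in this block 34 were lower and 7 higher. Outside it, 14 were lower and 8 higher. With ribosomal protein probes included, 12.7% of the probes in this block were down-regulated at 15 d, against 7.09% over the whole array. The block of the lowest probe numbers held 4 of the 63 probes, and 13.3% of its probes were down-regulated at 15 d. In the remaining blocks the percentage lay between 2.5 and 4.52. What the probe numbers stand for was not stated in the sources used here, and their part in the result was not tested.

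Other genes of protein synthesis were also found in both directions. The study listed 25 probes for elongation, initiation and release factors and tRNA synthetases, likewise chosen on these arrays. Of them 10, 10 and 14 were down- and 4, 4 and 8 up-regulated at 8, 12 and 15 d. Over all probes 4.48%, 4.77% and 7.09% were down- and 2.52%, 3.13% and 5.64% up-regulated at these times. Of the 654 listed probes not named ribosomal protein, 48.2% were down- and 41.4% up-regulated at 15 d. Because the listing used these ratios, nothing is read from the counts. Probe PSOLI01474 for elongation factor 1-alpha, which brings aminoacyl-tRNA to the ribosome, had the lowest ratio of these, with -2.16, -2.11 and -2.01 at 8 d, -2.33, -2.34 and -2.46 at 12 d, and -3.24, -3.20 and -3.20 at 15 d. The other probes for that factor stood at -2.68 (PSOLI02752), 1.06 (PSOLI03999) and 0.76 (PSOLI02555) at 15 d. PSOLI03999 was listed with the same database label as PSOLI01474, but that label names no species. Elongation factor 2, which moves the ribosome along the mRNA, was at -2.73, -2.78, -1.37 and -1.2 on probes PSOLI04762, PSOLI03982, PSOLI00844 and PSOLI04741 at 15 d and at 1.41 on probe PSOLI04147, and initiation factor 4A, an RNA helicase, at -1.49 (PSOLI04311) and 1.21 (PSOLI02308). Proteins that build ribosomes or bind the emerging chain made up 6 listed probes. Of these, 5 were down- and 1 up-regulated at 15 d, a count from which nothing is read either. Pescadillo, needed for the maturation of the large subunit, stood at -2.00, a Brix domain protein at -1.89, and the nucleolar complex protein 2 homolog at 1.46.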

How the data were processed

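The authors subtracted background, used print-tip loess within arrays, and scaled log-ratios between arrays by the median absolute value in limma. The values they deposited were log2 ratios (aged over non-aged), 1 per probe and array, with 0 of 5246 probes missing a value. How the 3 spots of a probe were combined, and spot intensities, were not used here. The direction is that of the list of changed probes in the study, from which product names, categories and accession numbers were taken. The 60 accession numbers were looked up in the RefSeq gene table of pea with 0 matches, so that no positions are given.

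A single limma 3.58.1 fit (R 4.3.3) took in the 9 arrays, with 1 coefficient per ageing time, 6 residual degrees of freedom and a prior of 9.165 degrees of freedom and SD 0.0748. Tests were two-sided, and 12 d against 8 d was a contrast with no fold-change threshold. On data simulated for that contrast over 5246 probes, 33% of 100 probes changed by 0.2 and 100% of 100 changed by 0.4 were recovered, with 9 false calls. No other probes were changed between these times in the simulation, while 8.84% and 9.68% of all probes were called lower and higher in the data. The adjustment depends on that share, so the recovered percentages need not hold for the data. Medians and counts and plots came from pandas 2.3.3, numpy 2.4.6 and matplotlib 3.10.9 under Python 3.11.15. The members and lists were chosen with earlier results of these data known. Probes are given on every array where they were among the 5 lowest or highest at 15 d, had a partner of opposite sign, were organellar or of the stalk, lay at the threshold, came nearer to 0 with time, or moved most between 8 d and 12 d. For S12 and probe PSOLI01474 of elongation factor 1-alpha the array values were added after they were seen. Alternatives were each time fitted alone, a dye term, the replicate block, centring, scaling, leaving out each replicate, other thresholds, 1 value per accession number, means over probes and counting untold compartments as cytosolic. The number of arrays limits the precision.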

Additional observations from a re-analysis of the deposited data

Results flagged for a closer look

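The difference between 12 d and 8 d passed limma's test, adjusted over all 5246 probes, for 17 ribosomal protein probes that were past the threshold at 15 d alone, where 8.84% of all probes were called lower and 9.68% higher at 12 d. Of these calls 13 were lower ones of probes that were down-regulated at 15 d, a count that was 4, 5 and 1 without replicate 1, 2 and 3, and 3 were higher ones of up-regulated probes, a count that was 1, 3 and 1. For the large subunit the difference in log2 ratio was -0.29 for L28-1, -0.27 for L12-3, -0.24 for L19-1, -0.23 for L35a-3, -0.22 for L30, -0.20 for L24, -0.19 for L34, and -0.18 for both L36-2 and P1-1. Small subunit probes gave -0.24 for S3a, -0.18 for S13 and -0.16 for S2-4, and chloroplast L3-2 gave -0.20. The opposite sign was found for S12 (0.18), L37-2 (0.43), L29-1 (0.27) and L22-2 (0.24). In S12 it ran against the probe's own side of 0, and in the others away from 0. The 8 d and 12 d arrays took part in choosing the 17 probes, since a probe called at either time was left out. No group held enough arrays for a search for single outlying arrays.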

How the results depend on the processing

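Of 178 alternative values, 124 kept their direction and side of the threshold or moved by less than the spread between arrays. The fold-change threshold moved the counts most. With none, 48 probes were down- and 15 up-regulated at 8 d and at 12 d, and with a log2 ratio of 1.5 the down-regulated numbered 0, 2 and 9 and the up-regulated 0, 1 and 1 at 8, 12 and 15 d. With 1 value per accession number, 2 probes were up-regulated at 12 d, and with arrays scaled to equal median absolute deviation 7 at 15 d. That scaling gave medians of -0.80, -0.97 and -1.04 for the large subunit, -0.92, -0.93 and -1.08 for the small subunit, and -0.79 and -0.92 for organellar probes at 8 d and 15 d. Centring gave -0.95 and -1.16 for the large subunit at 12 d and 15 d and -1.20 for the small subunit at 15 d. One value per accession number gave -0.72 and -0.90 for the large subunit at 8 d and 12 d and -0.81 for the small subunit at 8 d. Means over probes were -0.49, -0.55 and -0.68 for the large subunit, -0.53, -0.58 and -0.75 for the small subunit, and -0.39, -0.36 and -0.53 for organellar probes. With means, large minus small was 0.0362 at 8 d, 0.0298 at 12 d, where the sign reversed, and 0.0758 at 15 d. Counting untold compartments as cytosolic gave small subunit medians of -0.93 and -1.20 at 12 d and 15 d and differences of 0.14 at 8 d and 0.0533 at 15 d. The cause of these shifts was not tested. Leaving out each replicate gave 17 to 20 probes down-regulated at 8 d, 21 to 23 at 12 d and 45 to 46 at 15 d, and 2, 4 and 13 to 14 up-regulated. Large subunit medians ran from -0.76 to -0.74, from -0.96 to -0.94 and from -1.16 to -1.13 at 8, 12 and 15 d, and those of the small subunit from -0.87 to -0.83, from -0.94 to -0.89 and from -1.19 to -1.18. Organellar medians ran from -0.75 to -0.74, from -0.87 to -0.80 and from -1.02 to -1.0. Among probes past the threshold at 15 d alone, 1 to 5 were called lower and 1 to 3 higher at 12 d than at 8 d, with fewer arrays in the fit. Same-numbered arrays of different times deviated together with r between -0.012 and 0.056 across probes, so that the numbers gave no pairing, and with the replicate block, which here overlaps with the dye exchange, 11 of 22 probes were called lower and 3 of 9 higher. It changed no count at 8, 12 or 15 d.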
